A study of Danio rerio with 6 samples.

Results

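The genes described here are the nuclear encoded subunits of the mitochondrial respiratory chain and ATP synthase, in laser-captured distal pronephric tubule of zebrafish embryos. They were chosen by name from the table of gene counts: every row whose name begins with nduf, sdha to sdhd, uqcr, cyc1, cycs, cox4 to cox8 or atp5 was taken. That gave 63 of 10022 rows, of which 59 are named for a subunit and 4 for an assembly factor (ndufaf1, ndufaf2, ndufaf5 and sdhaf2), so the name rule is slightly wider than the chain itself. The 59 subunit rows comprise 21 of complex I, 3 of complex II, 7 of complex III, 1 of cytochrome c, 12 of complex IV and 15 of ATP synthase. The rows ndufa4 and ndufa4l were placed with complex IV, where the mammalian NDUFA4 protein resides despite its name.

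Every embryo, at 48 hours post fertilization, had Tg(wt1b:GFP) together with Tg(cdh17:GFP) in its background, reporters that label parts of the pronephros, the embryonic kidney. The 3 control libraries were epcam+/+ and the 3 mutant libraries epcamhi2151/hi2151, which have no wild-type copy of this gene for an epithelial adhesion protein. No source used here says how many embryos or captures a library holds, so the spread between libraries may be partly technical. By the project codes in their label descriptions, controls 1 and 2 share a project, and control 3 shares another with all 3 mutants. They are called the first and the second project here, names that state no order in time.

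The respiratory chain passes electrons from NADH, through complex I, or from succinate, through complex II, by way of complex III and cytochrome c to oxygen at complex IV. The protons pumped on the way drive ATP synthase, which is also called complex V. Most subunits are encoded in the nucleus and imported, and the rest are made in the mitochondrion. Kidney tubule cells are rich in mitochondria, whose ATP feeds the sodium pump that powers salt reabsorption.

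Total counts, after the lowest value of each column was subtracted, were 188022 to 746232 per control library and 126861 to 250714 per mutant library. Transcripts of epcam were counted 10, 15 and 10 times in controls 1 to 3, against 0 times in each mutant. A list of 12 pan-pronephric marker rows was counted in full in every control. In the mutants epcam was at 0 throughout, pax8 was also at 0 in mutant 2, and cdh1 in mutant 3. In a whole capture, fewer cells of a type and less RNA per cell cannot be told apart. Counts are not corrected for transcript length. Shares of counts held by a row or a complex, given below, are therefore shares of counts and not of transcript molecules.

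The subunits together were not distinguished by genotype. Their summed level was 11975, 14608 and 2468 library CPM in controls 1 to 3, against 11507, 4107 and 3973 CPM in mutants 1 to 3, where library CPM is a count scaled to a common library total. Mutant 1 lay close to controls 1 and 2, and control 3 was the lowest of all 6 libraries. Controls averaged 9684 ± 6386 library CPM (SD, n = 3) and mutants 6529 ± 4312, and the groups overlapped. The exact 95% binomial intervals were 2249 to 2703 CPM for control 3 and 3730 to 4227 CPM for mutant 3. Reads amplified from one molecule are not independent, so these intervals, and those of pooled ratios of counts given later, cover counting error only. After TMM scaling the sums were 14607, 19834 and 2728 CPM in controls 1 to 3, against 10635, 3386 and 2847 CPM in mutants 1 to 3, with control 3 still the lowest.

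Controls 1 and 2 and mutant 1 were also the 3 highest libraries, and control 3 the lowest, when each subunit had equal weight. The median subunit stood at 61.6, 63.0 and 10.6 library CPM in controls 1 to 3, against 58.1, 31.5 and 31.9 CPM in mutants 1 to 3. Over all 10022 rows the median was 12.7, 13.4 and 21.3 in the 3 controls, against 29.0, 31.5 and 51.9 in the 3 mutants. Over all rows, controls 1 and 2 were thus the lowest libraries and mutant 3 the highest. Of the 59 subunits, 20 had no count in control 3, against 3 in control 1, 2 in control 2 and 6, 11 and 3 in mutants 1 to 3. Brought to the smallest library total of 126861 counts, the expected number of the 63 rows detected was 57.1, 54.9 and 38.9 in the controls, against 53.7, 50 and 53.8 in the mutants. Control 3 was thus low in detection at matched depth as well.

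**Figure D1:**
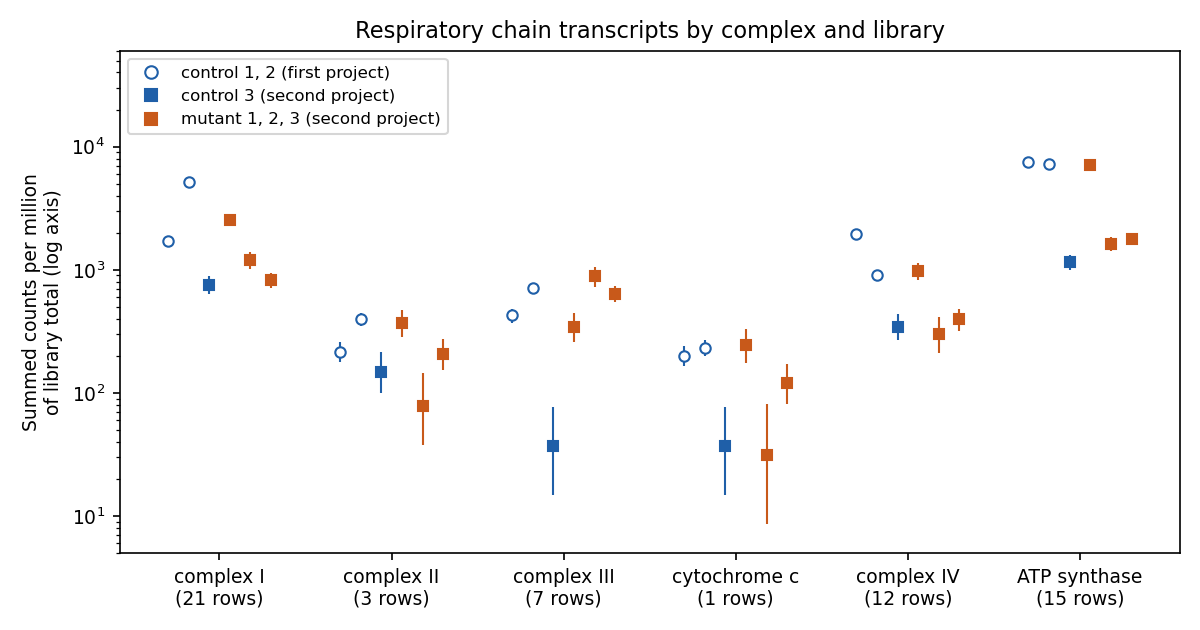
Summed library CPM (log axis) for each complex in each of the 6 libraries; bars are exact 95% binomial intervals and cover counting error only. Circles are controls 1 and 2 of the first project, blue squares control 3 and orange squares the mutants of the second. Control 3 lies at 1149 CPM for ATP synthase and 37.2 CPM for complex III, while mutant 1 lies at 7048 and 343 CPM.

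No subunit passed the test between genotypes. The test was edgeR's quasi-likelihood test on counts with Benjamini-Hochberg adjustment over all 3869 rows that passed edgeR's filter on low counts, and a call needed an adjusted p under 0.05. The filter kept 30 of the 63 rows, all of them subunits, and 0 of the 30 were called, where the background share of called rows was 0%. The smallest adjusted p among them was 0.393. At an unadjusted p under 0.05 the count was also 0 of 30, against 13.5% of all tested rows. DESeq2 called 0 of the 50 members to which it gave an adjusted p, with a smallest adjusted p of 0.218, against 4.38% of all rows, and 2 of the members had an unadjusted p under 0.05 against 19.3%. The authors' deposited table lists 379 called genes, where the counts hold 10022 rows, and none of the 63 rows is among them. At that share few of the 63 would be listed in any case.

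Of the 30 tested subunits 22 had a negative and 8 a positive log2 fold change (mutant minus control) under TMM scaling, where 52.2% of all tested rows were negative. The split was 20 to 10 with DESeq2's size factors, 18 to 12 with upper-quartile scaling and 14 to 16 with the library total alone. The median log2 fold change was -0.58, against -0.10 over all tested rows, and the latter moved to 0.09, 0.19 and 0.60 under those other scalings. The gap between these medians was -0.48, -0.47, -0.43 and -0.48 under the 4 scalings. Without control 3 the median of the members tested was -1.27 (35 of 44 negative against 47.4% of all rows, 0 called by edgeR, 3 at an unadjusted p under 0.05 against 24.6%), and without mutant 1 it was -1.54. The median was 0.13 with all 6 libraries and the library total alone. It was also positive in the libraries of the second project, where control 3 is the only control and is assumed to vary like the mutants, at 1.51 over the 41 members tested there, against 1.16 over all rows, and 9 of the 41 were negative against 35.4% of all rows. With the 8 of those that had no count in control 3 set to their lower bound it was 1.37. The sign of the median therefore turned with the scaling as well as with the controls used. By edgeR 0 of the 41 members were called in that comparison, with 7 at an unadjusted p under 0.05 against 12.6% of all rows.

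The level ranges of the groups, on the TMM-scaled CPM used for single genes below, did not overlap for 5 of the 63 rows. All 5 (atp5d, ndufb2, cox5ab, cox6b2 and cox6c) had every mutant below every control, which is 7.94% of the members against 6.08% of all rows. No member had every mutant above every control, where 11.2% of all rows did. On library CPM, a scale added after seeing the data, ndufb2, cox5ab and cox6c kept every mutant below (4.76% of members, 3.75% of all rows), and atp5d and cox6b2 overlapped. On that scale cox7a3 and ndufb9 had every mutant above (3.17% of members, 14.5% of all rows). The gap of ndufb2 lay between 2 counts in control 3 and 2 in mutant 3, and so came from the library scaling alone. That of cox5ab lay between 3 counts in control 3 and 2 in mutant 1.

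**Figure D2:**
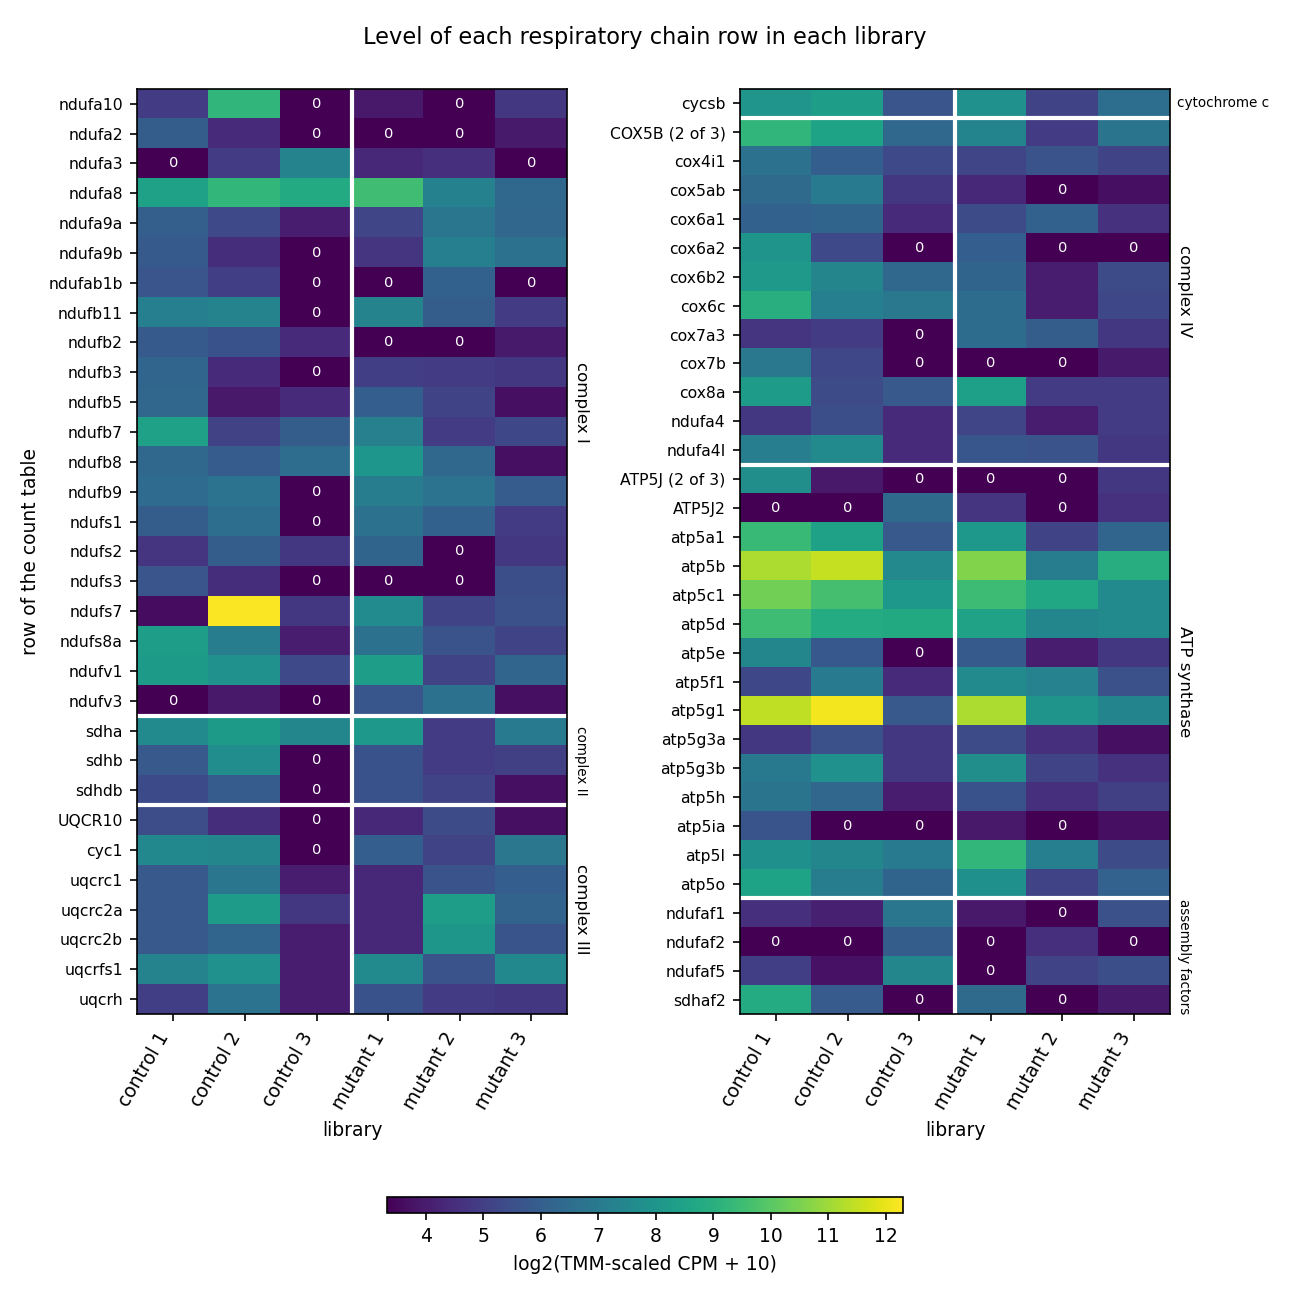
Level of each of the 63 rows (vertical axis, grouped by complex) in each library (horizontal axis), as log2 of TMM-scaled CPM plus 10; a 0 marks a row with no count. Control 3 has no count for 20 of the 59 subunits, and ndufs7 stands out in control 2 at 4798 CPM.

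ATP synthase, the proton-driven enzyme that makes ATP, held the largest number of subunit counts in every library: 62.3%, 49.5% and 46.6% in controls 1 to 3, against 61.3%, 39.5% and 45.1% in mutants 1 to 3. Its summed level was 7461, 7232 and 1149 library CPM in the controls, against 7048, 1624 and 1791 CPM in the mutants. Of its 15 rows 11 were counted in all 6 libraries, where the 63 rows gave 34 and all rows 33.5%, and 9 were tested.

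The membrane ring of the enzyme is built from subunit c, which several genes encode as one mature protein. The row atp5g1 (ENSDARG00000056008, GRCz10 chromosome 3, 23468742 to 23473848) was at 2787, 4521 and 47.0 TMM-scaled CPM in controls 1 to 3, against 2313, 240.5 and 154.4 in mutants 1 to 3. Controls 1 and 2 and mutant 1 were high, and control 3 was the lowest. The log2 fold change was -1.24 ± 1.40 (SE, n = 3 per group; edgeR adjusted p = 0.747). Its partner atp5g3b was likewise high in controls 1 and 2 and mutant 1, with 51, 122 and 3 counts in controls and 38, 4 and 5 in mutants. The other subunit c row, atp5g3a, had 8, 20 and 3 counts in controls and 6, 2 and 1 in mutants.

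The catalytic head of the enzyme is built mainly of alpha and beta subunits. The beta subunit row atp5b (ENSDARG00000070083, GRCz10 chromosome 11, 13150239 to 13155400) was at 2321, 2920 and 176.4 TMM-scaled CPM in controls and at 1529, 130.0 and 471.7 in mutants. The alpha subunit row atp5a1 was at 675.8, 338.4 and 47.0 in controls and at 262.9, 26.0 and 65.8 in mutants. Both were high in controls 1 and 2, intermediate in mutant 1 and low in the other libraries. Their log2 fold changes were -1.16 ± 1.18 and -1.43 ± 1.19, with edgeR adjusted p-values of 0.707 and 0.632. The gamma subunit row atp5c1, which encodes the rotating stalk, was at 1345, 800.5 and 264.6 TMM-scaled CPM in controls and 697.6, 409.5 and 188.7 in mutants.

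The delta subunit row atp5d, also part of the central stalk, was not low in control 3. It stood at 722.2, 447.6 and 423.3 TMM-scaled CPM in controls and at 354.2, 162.5 and 183.0 in mutants, without overlap on this scale. The difference of -1.07 ± 0.90 on the log2 scale did not pass (edgeR adjusted p = 0.635). The peripheral stalk row atp5f1, subunit b, lay the other way at 28.7, 120.1 and 11.8 in controls and 187.8, 149.5 and 37.2 in mutants (log2 fold change 1.42 ± 1.16). The subunit g row atp5l was at 216.4, 165.6 and 117.6 in controls and at 611.7, 136.5 and 31.4 in mutants (0.76 ± 1.104), and its sign turned without mutant 1, where it was -1.03. The oligomycin sensitivity row atp5o was at 362.2, 129.2 and 64.7 in controls and 214.6, 26.0 and 60.0 in mutants. The remaining rows were thinly counted: atp5h had 1 to 45 counts, atp5e 0 to 75, ATP5J (2 of 3) 0 to 94, ATP5J2 0 to 13 and atp5ia 0 to 18.

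Complex I, the NADH dehydrogenase that feeds electrons into the chain, had a summed level of 1707, 5134 and 750 library CPM in controls and 2531, 1190 and 822 CPM in mutants. In control 2 a single row, ndufs7, made up 68.8% of the complex. This row, which encodes an iron-sulfur subunit (ENSDARG00000074552, GRCz10 chromosome 11, 5845377 to 5855460), had 1, 2637 and 3 counts in controls 1 to 3, against 36, 4 and 13 counts in mutants 1 to 3. In TMM-scaled CPM controls 1 and 3 lay below all 3 mutants. Its log2 fold change of -3.98 ± 2.01 (edgeR adjusted p = 0.439) therefore rested on control 2, without which the row was not tested. The row ndufa10 was likewise counted 323 times in control 2 and between 0 and 9 times in each of the other libraries.

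The NADH-binding subunit row ndufv1 was at 284.9, 223.8 and 29.4 TMM-scaled CPM in controls and at 316.6, 26.0 and 65.8 in mutants. The iron-sulfur subunit row ndufs8a was at 309.2, 127.4 and 5.88 in controls and at 91.2, 39.0 and 25.7 in mutants, with a log2 fold change of -1.33 ± 1.26 (edgeR adjusted p = 0.682). Both were again high in controls 1 and 2 and low in control 3. The accessory row ndufa8 differed from them, at 344.5, 605.9 and 440.9 in controls and 735.1, 143.0 and 71.5 in mutants. In control 3 it had 75 counts, or 53.2% of that library's complex I counts. This gave a log2 fold change of -0.44 ± 1.04, and 0.07 without mutant 3.

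The accessory rows ndufb8 and ndufb9 and the iron-sulfur row ndufs1 were the 3 tested complex I rows with a positive log2 fold change. The levels of ndufb9 were 77.3, 96.4 and 0 TMM-scaled CPM in controls and 128.8, 97.5 and 51.5 in mutants. Apart from the empty control 3, the groups overlapped. The log2 fold change of ndufb9 was 0.87 ± 1.31, that of ndufs1 0.47 ± 1.34 (-0.29 without control 3) and that of ndufb8 0.75 ± 1.29 (-0.96 without mutant 1), with edgeR adjusted p-values of 0.824 to 0.912. The row ndufb7 was at 344.5, 23.7 and 52.9 in controls and 139.5, 19.5 and 28.6 in mutants, and ndufb11 at 136.9, 151.0 and 0 in controls and 150.2, 52.0 and 20.01 in mutants.

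The paired rows ndufa9a and ndufa9b went together across the libraries. The former (GRCz10 chromosome 25, 16675992 to 16686135) had 25, 16 and 1 counts in controls and 5, 16 and 24 in mutants. The latter (chromosome 10, 8169734 to 8170475), which spans 742 bases only, had 22, 7 and 0 counts in controls and 3, 21 and 33 in mutants. No source used here says how reads shared by such copies were counted, so the split between them is uncertain. The row ndufb5 had 31, 3 and 2 counts in controls and 10, 4 and 1 in mutants. Among sparser complex I rows, ndufb2 had 22, 21 and 2 counts in controls and 0, 0 and 2 in mutants, a pooled ratio of 8.32 (exact 95% interval 2.17 to 70.8). The row ndufv3 had 0, 3 and 0 counts in controls and 8, 14 and 1 in mutants, a pooled ratio of 20.7 (6.26 to 107.8) in the other direction. The row ndufa3 had its highest count, 26, in control 3.

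Complex II, succinate dehydrogenase, links the chain to the citric acid cycle and had 3 rows. The flavoprotein row sdha (ENSDARG00000016721, GRCz10 chromosome 19, 7357135 to 7372808) was at 185.5, 285.6 and 164.6 TMM-scaled CPM in controls and 268.3, 19.5 and 122.9 in mutants. Mutant 2, with 3 counts, stood apart below the rest, and control 3 was not low. The log2 fold change was -0.51 ± 1.06 (edgeR adjusted p = 0.877). The iron-sulfur row sdhb had 21, 110 and 0 counts in controls and 7, 3 and 8 in mutants, and the membrane anchor row sdhdb had 14, 28 and 0 counts in controls and 7, 4 and 1 in mutants.

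Complex III, the ubiquinol-cytochrome c reductase, had its highest summed library CPM in a mutant. The sums were 425, 716 and 37.2 library CPM in controls 1 to 3, against 343, 883 and 638 CPM in mutants 1 to 3. After TMM scaling control 2 was the highest, at 972 CPM against 728 CPM in mutant 2, and the group means turned from 393 in controls and 621 in mutants to 511 and 501. Complex III held 3.55%, 4.90% and 1.51% of subunit counts in controls and 2.98%, 21.5% and 16.1% in mutants, so its share was higher in mutants 2 and 3 than in every other library. The hinge row uqcrh had 10, 53 and 1 counts in controls and 7, 3 and 6 in mutants. No row of complex III exceeded 3 counts in control 3.

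The core rows uqcrc2a and uqcrc2b contributed most to mutant 2. The levels of uqcrc2a (GRCz10 chromosome 3, 58096746 to 58133544) were 46.4, 302.0 and 17.6 TMM-scaled CPM in controls and 10.7, 312.0 and 62.9 in mutants. Those of uqcrc2b (chromosome 12, 10386833 to 10403818) were 46.4, 65.5 and 5.88 in controls and 10.7, 260.0 and 40.0 in mutants. Both had 21 counts in control 1 and 2 in mutant 1, as did the core row uqcrc1, which had 58 and 1 counts in controls 2 and 3 and 6 and 19 in mutants 2 and 3. The log2 fold changes were 0.35 ± 1.36 and 1.61 ± 1.34, with edgeR adjusted p-values of 0.932 and 0.630, and without mutant 2 they were -1.60 and -0.54.

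The Rieske iron-sulfur row uqcrfs1 (ENSDARG00000007745, GRCz10 chromosome 7, 45128440 to 45131436) was at 150.2, 225.6 and 5.88 TMM-scaled CPM in controls and 182.4, 39.0 and 171.5 in mutants. Mutants 1 and 3 matched controls 1 and 2, and the log2 fold change was 0.24 ± 1.21. The cytochrome c1 row cyc1 was at 174.5, 163.7 and 0 in controls and 53.7, 26.0 and 108.6 in mutants. Within the second project the mutants had 100 counts of uqcrfs1 against 1 in control 3, a pooled ratio of 34.2 (exact 95% interval 5.999 to 1364), and were at least 3.56-fold higher for cyc1 against a floor of 3 counts. Neither passed adjustment there (edgeR adjusted p = 0.394 and 0.391).

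Cytochrome c, the mobile carrier between complexes III and IV, was represented by cycsb (ENSDARG00000044562, GRCz10 chromosome 6, 10675162 to 10676997). It stood at 245.1, 314.8 and 41.2 TMM-scaled CPM in controls and 225.4, 26.0 and 85.8 in mutants. Controls 1 and 2 and mutant 1 were the high libraries, and on library CPM mutant 1 came first at 244, before controls 2 and 1 at 232 and 201. Its log2 fold change was -0.66 ± 1.11 (edgeR adjusted p = 0.844).

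Complex IV, cytochrome c oxidase, had the lowest median fold change of the complexes with more than 1 tested row. Its summed level was 1964, 899 and 346 library CPM in controls and 970, 300 and 395 CPM in mutants, with overlap. All 5 tested rows had negative log2 fold changes, with a median of -1.73 against -0.10 over all tested rows. Under DESeq2's size factors, upper-quartile scaling or the library total, 4 of 5 were negative, with medians from -1.54 to -1.06. With the project as a term 3 of the 5 were positive, with a median of 0.29 against 0.51 over all tested rows. In control 3's project alone 4 of 6 tested rows were positive, with a median of 0.86 against 1.16 over all rows tested there. None was called in any of these fits. Without the filter on low counts 11 of its 12 rows were negative, against 52.7% of all rows, and 3 of the 12 had every mutant below every control in TMM-scaled CPM, against 6.08% of all rows.

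The row cox6c (ENSDARG00000038577, GRCz10 chromosome 6, 52235442 to 52241530), a small structural subunit, was at 488.1, 136.5 and 111.7 TMM-scaled CPM in controls and 80.5, 6.5 and 28.6 in mutants. Every mutant lay below every control, and mutant 2 held a single count. Its log2 fold change was -2.54 ± 1.199, with the smallest p of the 30 tested members (edgeR adjusted p = 0.393). Without the filter on low counts ndufa10, cox5ab, ndufs7 and ndufv3 had smaller p than cox6c, and none was called. The row cox6b2 was at 276.1, 160.1 and 70.5 in controls and 64.4, 6.5 and 31.4 in mutants, again without overlap on this scale (-2.16 ± 1.15, edgeR adjusted p = 0.454). Within the second project they were at -1.52 ± 1.51 and -1.03 ± 1.53. This sign is no separate result, because control 3 already lay above all 3 mutants for both rows.

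The row COX5B (2 of 3), which encodes a zinc-binding subunit, was at 591.9, 360.2 and 70.5 TMM-scaled CPM in controls and 155.6, 19.5 and 100.1 in mutants. Its log2 fold change was -1.73 ± 1.11 (edgeR adjusted p = 0.521), but 0.38 ± 1.51 within the second project. The row ndufa4l, listed under the symbol NDUFA4 in the reference name table, was at 132.5, 185.6 and 11.8 in controls and 42.9, 39.0 and 17.2 in mutants (-1.53 ± 1.14, edgeR adjusted p = 0.589). The row cox5ab had 34, 64 and 3 counts in controls and 2, 0 and 1 in mutants, a pooled ratio of 12.5 (exact 95% interval 4.14 to 61.4). The row cox7b had 50, 15 and 0 counts in controls and 0, 0 and 2 in mutants, a pooled ratio of 12.0 (3.20 to 101.4).

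Without the filter on low counts cox7a3 was the 1 complex IV row of 12 with a positive log2 fold change, at 1.88. The other rows given next were negative in that fit, from -2.37 for cox6a2 to -0.07 for cox8a. The row cox7a3, listed as COX7A2L in the reference name table, had 7, 11 and 0 counts in controls and 15, 8 and 6 in mutants. The row cox8a was high in control 1 and mutant 1, at 295.9 and 322.0 TMM-scaled CPM, and between 19.5 and 47.0 in the other libraries. The rows cox6a1 and cox6a2, the latter listed under the symbol COX6A1 in the reference name table, differed. The former was at 59.6, 63.7 and 11.8 in controls and 32.2, 58.5 and 14.3 in mutants. The latter had 108, 16 and 0 counts in controls and 10, 0 and 0 in mutants. The row ndufa4 had 8, 19 and 2 counts in controls and 5, 1 and 7 in mutants. The row cox4i1 was at 94.97, 54.6 and 29.4 in controls and 26.8, 39.0 and 25.7 in mutants.

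**Figure D3:**
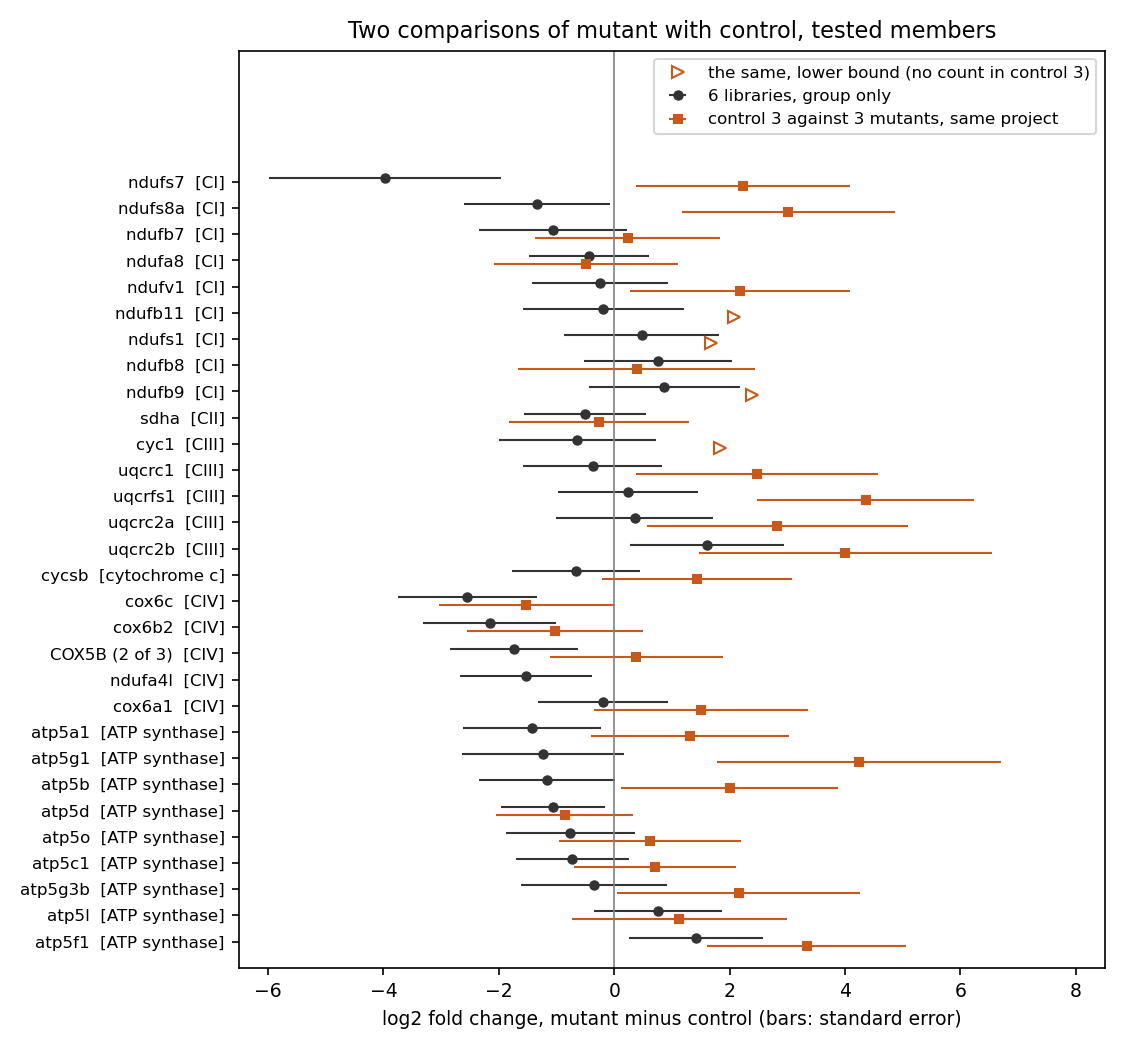
Log2 fold change, mutant minus control, for the 30 tested subunits, with standard errors as bars; black circles use all 6 libraries with group as the only term, orange squares set control 3 against the 3 mutants of its project, and open triangles are lower bounds where control 3 had no count. The comparisons share control 3 and the mutants, and for cox6c control 3 lay above every mutant. The row atp5g1 moves from -1.24 to 4.24, cox6c is at -2.54 and -1.52, and no value from all 6 libraries is a call.

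The 4 assembly factor rows were sparsely counted. The row ndufaf5 had 10, 2 and 28 counts in controls and 0, 4 and 12 in mutants, and ndufaf1 had 6, 4 and 18 counts in controls and 1, 0 and 13 in mutants. Both had their highest count in control 3, and so did ndufaf2, with 9 counts there and 2 in all other libraries together. The row sdhaf2, a flavin insertion factor of complex II, had 205, 27 and 0 counts in controls and 14, 0 and 2 in mutants.

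The subunits were also compared with each other across libraries. Over the 63 rows, log2(library CPM + 10) correlated at 0.560 between controls 1 and 2, at 0.368 and 0.353 between each of these and control 3, and at 0.512 to 0.592 among the mutants. The highest value, 0.713, lay between control 2 and mutant 1, libraries of different genotype and different project. Over all 10022 rows that pair stood at 0.265 and the controls 1 and 2 at 0.452. These are correlations across genes, which share their length and base composition in every library and are not independent replicates.

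In the fit with both genotype and project as terms, 28 of the 30 tested subunits were higher in the first project than in the second. Over all rows 45.2% were lower in the first project. The median of that project term was 2.85 on the log2 scale, or 2.47 with the 4 rows that had no count in control 3 at their bound, against 0.29 over all rows. None was called (edgeR, 7 of 30 at an unadjusted p under 0.05 against 16.1% of all rows). This term rests on control 3 as the only control of the second project, so the project and the character of that library cannot be told apart. In the same fit the genotype term gave 25 of 30 subunits a positive sign, with a median of 1.69 (1.58 with the same rows at their bound), against 0.51 over all rows and 41.9% of rows negative. It called none of them against 0.233% of all rows, with 4 at an unadjusted p under 0.05 against 12.4%.

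Other lists of mitochondrial and related genes, glycolysis among them, were written by hand and summed in the same way. Their counts are to be read against all tested rows, of which 52.2% were negative, 0% called and 13.5% at an unadjusted p under 0.05. Inner membrane carriers, outer membrane channels, chaperones and import components stood at 13939, 14650 and 4654 library CPM in controls and 6201, 2830 and 4503 CPM in mutants. A row of this list is named arid4b in the count table and was included because the reference name table gives its ID as tomm20a. Of 11 tested rows 10 had a negative and 1 a positive log2 fold change, 0 were called by edgeR (3 at an unadjusted p under 0.05) and the median was -1.23, or -0.08 with the project as a term. The outer membrane channel row vdac3 had 2018, 2386 and 255 counts in controls and 153, 35 and 183 in mutants (log2 fold change -2.56 ± 0.97, edgeR adjusted p = 0.276). With the project as a term vdac3 was at -1.60. The import chaperone row hspa9 had 869, 1015 and 14 counts in controls and 10, 18 and 25 in mutants, so control 3 again lay with the mutants. The log2 fold change of hspa9 was -3.76 ± 1.22 (edgeR adjusted p = 0.204), and adding the project term brought it to -0.08.

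Citric acid cycle rows were at 6322, 6069 and 2537 library CPM in controls and 3594, 1616 and 2537 CPM in mutants, with 14 of 17 tested rows negative, 0 called (2 unadjusted) and a median of -0.77, or -0.18 with the project as a term. The dehydrogenase rows dldh and ogdha had log2 fold changes of -4.30 ± 1.45 and -2.39 ± 1.07 (edgeR adjusted p = 0.208 and 0.358), but -0.18 and 0.03 with the project as a term. Glycolysis rows were at 4046, 2625 and 5840 CPM in controls and 1451, 914 and 1436 CPM in mutants, without overlap. Of their 12 tested rows 11 were negative, 0 were called (3 unadjusted) and the median was -1.93, or -1.95 with the project as a term. The isomerase row gpia had 33, 190 and 16 counts in controls and 4, 4 and 7 in mutants (-2.72 ± 1.07, edgeR adjusted p = 0.287). With the project as a term gpia was at -2.12.

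Regulators of mitochondrial biogenesis were at 1356, 1872 and 335 library CPM in controls and 1266, 1379 and 1109 CPM in mutants, with 5 of 7 tested rows negative and 0 called (0 unadjusted), and a median of -0.42, or 1.88 with the project as a term. The coactivator row pprc1 was at 1.74 ± 1.09 and the transcription factor row nrf1 at 1.09 ± 1.35 on the log2 scale (edgeR adjusted p = 0.510 and 0.770). With the project as a term pprc1 was at 1.88 and nrf1 at -0.22. Assembly factors outside the name rule were at 416, 764 and 207 CPM in controls and 1068, 386 and 475 in mutants. Of 3 tested rows 1 was negative and 0 were called (0 unadjusted), with a median of 0.43, or 0.40 with the project as a term. The rows lrpprc and uqcc1 were at 1.01 ± 1.03 and 0.43 ± 1.01, or 1.19 and 0.11 with that term. Antioxidant and uncoupling rows were at 1550, 1473 and 1085 CPM in controls and 1231, 355 and 786 CPM in mutants, with 4 of 5 tested rows negative, 0 called (1 unadjusted) and a median of -1.31, or -0.05 with the project as a term. Of these gpx4a was at -3.29 ± 1.44 and nnt at -1.31 ± 0.99, or -4.51 and 0.20 with the project as a term.

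By DESeq2, 2 of the 96 rows of these 6 lists with an adjusted p were called, or 2.08% against 4.38% of all rows. Both were pyruvate dehydrogenase kinase rows of the citric acid cycle list, not enzymes of the cycle itself. They were pdk2a, with no count in any mutant, and pdk3b, with no count in any control.

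Marker lists of cell types were set beside the subunit sums. The 12 pan-pronephric rows stood at 13660, 11273 and 1191 library CPM in controls and 12274, 2641 and 5201 CPM in mutants. Controls 1 and 2 and mutant 1 were thus the highest and control 3 the lowest in both the pronephric and the subunit sum. Sodium pump rows weighed most in the former: atp1a1a.4 and atp1b1a had 2491 and 2313 of 7545 counts in control 1, and 896 and 417 of 2114 in mutant 1. The row cdh17 followed the sum, with 1406, 1515 and 22 counts in controls and 300, 25 and 109 in mutants. Not every row did: jag2b had 9, 18 and 14 counts in controls and 246, 52 and 28 in mutants, and sim1a had its highest count, 46, in mutant 3. The 17 distal tubule rows stood at 2643, 3007 and 1388 CPM in controls and 4714, 1309 and 2589 CPM in mutants. In control 3 most of the 261 counts came from gata3 (122) and trpm7 (47), and trpm7 had no count in controls 1 and 2. The row slc12a3 had 13 counts in control 3, against 798 and 1108 in controls 1 and 2. Of these 17 rows 4, 2 and 4 had no count in controls 1 to 3, among them SLC12A1 in control 1 and emx1 in control 3, and 1, 3 and 1 had none in mutants 1 to 3, among them gata3 and emx1 in mutant 2. The part of these differences in the subunit levels was not tested.

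The distal tubule sum had the order of the pronephric and subunit sums only in part, as mutant 2, at 1309 library CPM, lay below control 3, at 1388. The sums of the marker lists of other cells did not have that order. The 23 skeletal muscle rows stood at 48699, 5268 and 1963 library CPM in controls and 7757, 20258 and 28455 CPM in mutants, so muscle was high in mutants 2 and 3, where the subunits were low, and highest in control 1, where they were high. The 20 gut, liver and yolk rows stood at 10840, 13238 and 113896 CPM in controls and 464, 977 and 1181 CPM in mutants, and all 20 were counted in control 3. The yolk row vtg2 went the other way, with 0, 0 and 4 counts in controls and 11, 15 and 6 in mutants. The 17 keratinocyte and periderm rows stood at 2694, 3574 and 38639 CPM in controls and 3501, 930 and 1049 CPM in mutants. The row krt8 held most of their counts in controls 1 and 2 and mutant 1, with 1204 of 1488, 1883 of 2667 and 516 of 603. In control 3 krt8 had 384 of 7265 counts and krt4 had 4263. The rows tp63, evpla and krtt1c19e had no count in controls 1 and 2. Of 3 erythrocyte rows none was counted in control 3 or mutant 2, and 4 neuron and glia rows stood at 5 to 80 CPM in controls and 255 to 709 CPM in mutants. The part of these cells in the subunit levels was not tested.

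**Figure D4:**
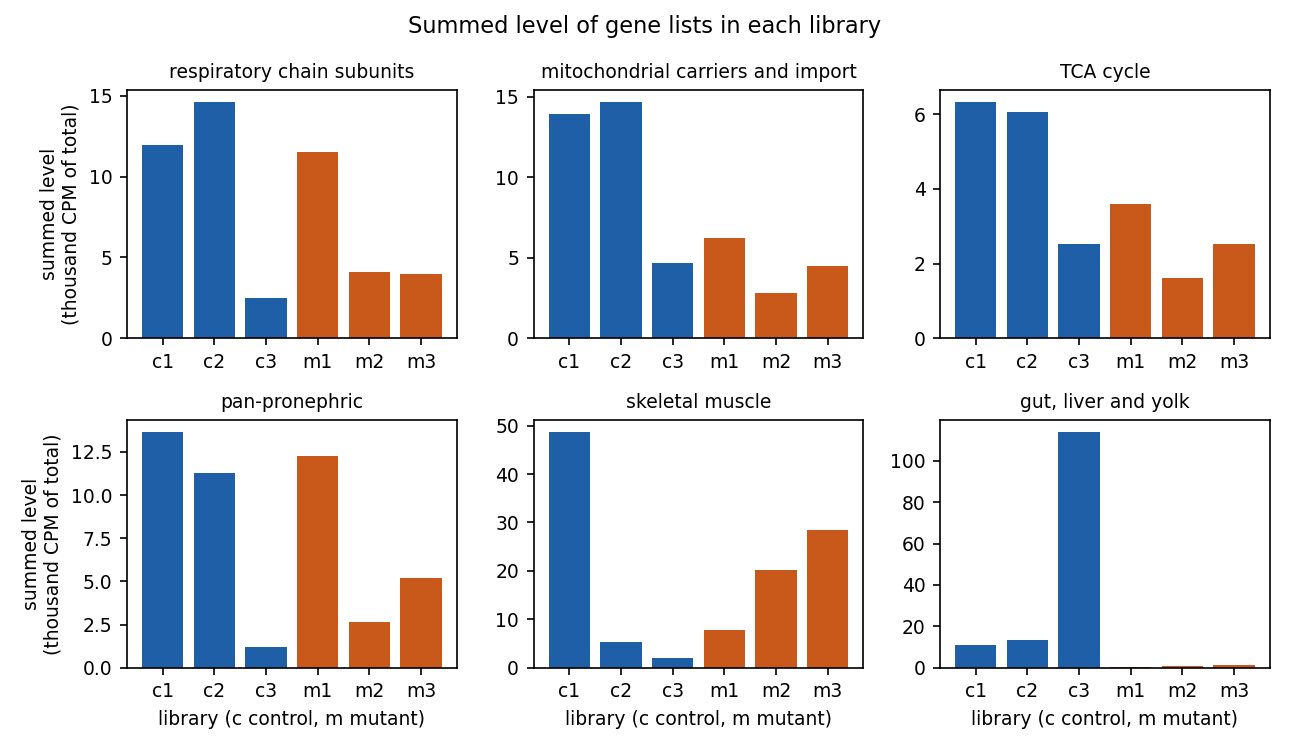
Summed level of the 59 respiratory chain subunits and of 5 gene lists in each library (library CPM scaled as on the axis, bars from 0; blue controls, orange mutants). The subunit and pan-pronephric panels share 3 high libraries (controls 1 and 2 and mutant 1), the muscle panel peaks in control 1 and mutant 3, and the gut, liver and yolk panel peaks in control 3 at 113896 CPM.

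The subunit genes are short, with a median span of 6211 bases on GRCz10 against 22584 bases over all rows. Weighted by counts, the median span was 19027, 19426 and 15920 bases in controls 1 to 3, against 24136, 27306 and 29693 bases in mutants 1 to 3, without overlap. Over all tested rows the median log2 fold change was -0.49 for spans up to 5000 bases, -0.56 from 5000 to 10000 bases and 0.18 above 50000 bases. In the same first bands the tested subunits had medians of -0.19 (7 rows) and -0.89 (14 rows). The part of gene span in the subunit values was not tested.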

How the data were processed

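Tissue was laser-captured and its cDNA amplified with random and oligo(dT) primers, and libraries carried no strand, per the labels' protocols. Per the submitters' processing notes, the tools were TopHat2 2.1.0, Trimmomatic 0.36.0 and DESeq2, in no stated order, and the build GRCz10. The authors deposited whole-number counts per gene, and no source used here names the counting tool or row filter. The deposited p-values are the FDR column of the authors' table, used only to look for members. Each column's lowest value (11, 0 and 32 for controls 1 to 3; 30, 31 and 17 for mutants 1 to 3) was subtracted. No label states such a constant, so this is an inference, and the values as deposited were an alternative.

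Counts were tested with edgeR 4.0.16 in R 4.3.3, with filterByExpr, TMM and a robust quasi-likelihood fit with adjusted deviances. Group was the only term, with 3 against 3 libraries. The fitted common coefficient of variation between libraries of a group was 1.11. Simulated data used to check the code had a lower spread, so they do not show what the test can call here. DESeq2 1.42.0, other scalings, no filter, the project as a term, the second project alone, the replicate block and each library left out were alternatives. Standard errors were derived from each log2 fold change and its F statistic. Where a genotype had 1 to 3 counts over its libraries, the pooled ratio of counts is given with its exact 95% interval. Where there was no count, a bound against 3 counts is given. The ratios not given above were 5.55 (1.41 to 47.9) for ndufa2, 3.33 (0.797 to 29.6) for atp5ia and 1.66 (0.344 to 15.8) for ndufaf2, all higher in controls. For the second project alone only the ratio of uqcrfs1 is given. Named rows were the 2 with the highest mean CPM in each complex, the 8 with the smallest p in each direction, those counted in all 6 libraries and paralog pairs; names that end in different numbers but denote different subunits were not paired. Sparser rows outside this rule, such as ndufb2, ndufv3, ndufa10, cox5ab, cox7b and the assembly factors, were named after their values were seen. Without strand, reads of overlapping antisense genes cannot be told apart. From each pathway list the 2 tested genes with the smallest p were named, except 1 that is not reported here. List rows were matched by name or by the reference symbol of their ID. Members and lists were chosen with earlier results of these data known. Promoter and protein sequences were not used here.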

Additional observations from a re-analysis of the deposited data

How the results depend on the processing

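Respiratory chain members past the threshold numbered 0 under every alternative run, while the genes past it over all rows went from 0 to 349 with DESeq2 and 9 with the project as a term, and stayed at 0 elsewhere. The median log2 fold change of the tested members, -0.58, became 0.13 with the library total alone, 1.69 with the project term and 1.51 in control 3's project alone, and ranged from -1.54 to -0.34 with 1 library left out. The complex IV median, -1.73, became 0.29 and 0.86 with the project term and in that project alone. The medians over all tested rows in these fits were 0.51 with the project term and 1.16 in that project alone. Mean summed levels moved by less than 1 SD under TMM scaling, which turned the order of the groups for complex III. The cause of these changes was not tested.

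Changes of sign were followed for 21 tested members, those named for their level or smallest p, and are given below. The other tested members all turned from negative to positive with the project term. Their values there went from 0.14 for ndufb7 to 7.63 for ndufb11, which had no count in control 3. For comparison, the medians over all tested rows were 0.51 with the project term and 1.16 in control 3's project alone. Values with the project term, then in control 3's project alone, were 0.29 and 0.38 for COX5B (2 of 3), 1.23 and 1.31 for atp5a1, 1.91 and 2.00 for atp5b, 4.15 and 4.24 for atp5g1, 1.35 and 1.43 for cycsb, 2.16 and 2.23 for ndufs7 and 2.98 and 3.01 for ndufs8a, and ndufa4l was 1.38 in the former. On the values as deposited atp5f1 was -0.17, atp5l -0.71, ndufb8 -0.19, ndufb9 -0.41, ndufs1 -0.48, uqcrc2a -1.11, uqcrc2b -0.0055 and uqcrfs1 -0.86. With the library total alone ndufa8 was 0.12 and sdha 0.13. With 1 library left out, atp5l ranged from -1.03 to 1.31, ndufa8 from -2.11 to 0.072, ndufb8 from -0.96 to 1.39, ndufs1 from -0.30 to 0.97, uqcrc2a from -1.60 to 1.90, uqcrc2b from -0.54 to 1.86 and uqcrfs1 from -0.50 to 0.68.

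With the replicate block the median was -0.63, 0 members and 0 rows were called (395 rows at an unadjusted p under 0.05, against 521 without it), with atp5l at -0.040, ndufb8 at -0.022 and ndufs7 at 0.70. Deviations of same-numbered libraries correlated at 0.08, -0.05 and 0.03, and not every library correlated best with its own number, so the numbers give no pairing. The library total alone and the earlier edgeR method were alternatives added after seeing the data, as were the thinning to equal depth and the overlap of groups on library CPM. Depth limits the rows of few counts: 1 count equals 1.34 to 7.88 library CPM.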
